A study of Homo sapiens with 15 samples.

Results

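Histone lysine methyltransferases and demethylases were followed across 5 groups of HepG2 libraries. The members were chosen by gene symbol, with earlier results of these data known. The rule took the KDM, KMT2 to KMT9, SETD, SUV39H and EZH families, with SETDB1, SETDB2, EHMT1, EHMT2, NSD1, NSD2, NSD3, DOT1L, EED and SUZ12, and without KDM5C, KDM5D and KDM6A. This gave 47 of the 39133 genes in the deposited table, 31 methyltransferases or core subunits of Polycomb repressive complex 2 (PRC2) and 16 demethylases. All 47 carry standard symbols and were placed on GRCh38 (hg38) by GENCODE 29. The family label holds for most but not all of them by known substrate: SETD3 methylates a histidine of actin, SETD6 a subunit of NF-kappaB, and EED and SUZ12 carry no catalytic domain.

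Histone lysine methyltransferases transfer a methyl group from S-adenosylmethionine to a lysine of the histone tail or core, and demethylases of the LSD (KDM1) and JmjC types remove it. Methylation of H3K4 marks promoters and enhancers, that of H3K36 and H3K79 marks transcribed gene bodies, that of H3K27 by PRC2 and of H3K9 by the SUV39 family marks silent chromatin, and H4K20 methylation is set during and after DNA replication. Butyrate is a short-chain fatty acid that inhibits histone deacetylases, and so acts on a different histone mark from the one these enzymes write and erase.

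HepG2 is a human line from a liver cancer, labelled as wild type and grown in DMEM with fetal bovine serum, and messenger RNA was measured by poly(A)-selected paired-end sequencing. Each group had 3 libraries, called biological replicates in the series text: untreated cells (control), palmitate alone, a saturated fatty acid that the series uses as a model of insulin resistance, and palmitate together with 0.5, 1 or 1.5 mM sodium butyrate, named the low, medium and high dose. Every butyrate library thus also carries palmitate, no group received butyrate without it, and palmitate is labelled at 200 mM in all 4 treated groups, a unit whose correctness is not known. All libraries were labelled batch1 and harvested at 48 h, although the series text also speaks of 24 h. By the names of the libraries, the palmitate group had 48 h of the fatty acid, while the others had 24 h of it followed or joined by 24 h with butyrate, so the effect of butyrate and that of exposure time cannot be told apart.

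Total counts ran from 35349827 to 61086976 per library, and the 47 genes together took 0.230% to 0.275% of them. Of 9 hepatocyte markers none was at 0 in any group, with ALB at 6305 ± 1189 CPM and HNF4A at 293.5 ± 23.9 CPM in palmitate (SD, n = 3; CPM is edgeR's per-library level, the count over the scaled library total). Of 13 stromal, endothelial and immune markers, 6 to 9 lay under 1 CPM in each group, PTPRC, CD3E and DCN at or near 0 in all of them. The summed level of these 13 was 2083 to 2667 CPM in palmitate and 990.3 to 1067 CPM in high butyrate, and LYZ made up most of it. Against palmitate, 25.9%, 27.1% and 37.7% of all genes tested were higher at the low, medium and high doses, and 24%, 24.4% and 33.8% lower. Of the 8 of these markers that could be tested, 6 were higher and 1 lower at the low dose and 7 and 1 at the medium dose. At the high dose 5 of these markers were higher and 2 lower, with a median log2 change of 1.67. Their part in the changes of the methylation genes was not tested. The palmitate libraries were the least alike: chi-square per gene between pairs was 19.3 to 62.4 there against 5.58 to 8.22 in control, and palmitate library 1 was in the 2 most different pairs.

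Palmitate library 1 also stood apart for most GC-rich members, and for KMT2C and KMT2A, which are not GC-rich. Of the 12 tested members whose longest transcript was over 54% GC, 10 were lower in it than in the mean of the other palmitate libraries, with a median log2 ratio of -0.30. The 15 members under 45% GC had a median log2 ratio of 0.08. KMT2D, at 59.1% GC, stood at 88.3 CPM in that library against 176 and 147 CPM in the others, and KMT2C, SETD1B, KDM6B, DOT1L, KMT2A and KMT2B were 0.691 to 0.734 times the mean of the others there. Calls against palmitate that are lost or made without this library are given beside the gene.

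On the per-length scale (FPKM) KDM1A, the flavin-dependent H3K4 demethylase also known as LSD1, had the highest level of the 47 in every group, 35.2 ± 1.67 FPKM in palmitate and 24.4 ± 0.374 FPKM in high butyrate (SD, n = 3). The next in palmitate were SETD1A at 11.0 ± 1.49 FPKM, KDM3B at 10.9 ± 0.897 FPKM and SUZ12 at 10.5 FPKM, and these 3 did not differ beyond their spread. In high butyrate the genes after KDM1A were KDM3A at 15.6 ± 0.906 FPKM and KDM1B at 13.2 ± 0.182 FPKM, which stood 6 and 11 in the palmitate order. KDM3B went from rank 3 to rank 15 and NSD2 from rank 9 to rank 21. At the bottom, KDM4E had counts in 1 medium library only and was not tested, which left 46 members, and NSD1 and SETD7 were at 0.0119 and 0.0283 FPKM in palmitate.

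Palmitate alone was compared with control first, the question being what the fatty acid does to these genes. No member was called at an adjusted p under 0.05 by edgeR, where 0.0345% of all 20309 genes tested were called higher and 0.0739% lower. DESeq2 and limma on FPKM also called 0 of the 46, and 6 had an unadjusted p under 0.05 in edgeR. EZH2, the main H3K27 methyltransferase of proliferating cells, came closest, with 64.7, 65.8 and 65.9 CPM in control and 75.5, 71.4 and 76.4 CPM in palmitate. The palmitate libraries lay above the control libraries, but the log2 difference of 0.19 (SE 0.06) had an adjusted p of 0.20. The median log2 difference was 0.0045 for the members and 0.003 for all genes tested. Without palmitate library 1, NSD1 (log2 -4.49, adjusted p = 0.00281) and SETD7 (log2 -2.66, adjusted p = 0.000498) were called lower. Without palmitate library 2, KMT2D was called lower (log2 -0.42, adjusted p = 0.0441). Since nothing more is known of how the replicates were made, the p-values reflect no more than the spread among libraries within groups. That spread was estimated over all 5 groups in 1 fit, although the palmitate libraries were the least alike.

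The effect of butyrate on palmitate-treated cells was then compared at each dose, with the same 3 palmitate libraries as reference each time. At the high dose 27 of the 46 members fell and 12 rose, that is 58.7% and 26.1% of them, where 33.8% of all genes tested were called lower and 37.7% higher. The median log2 change was -0.34 for the members and 0.06 for all genes. Methyltransferases and PRC2 core subunits gave most of the falls, with 21 of 31 lower, 7 higher and a median of -0.53. Demethylases were more evenly split, with 6 of 15 lower, 5 higher and a median of -0.12. The balance depended on the scaling: with library totals alone the median of all genes was 0.19 in place of 0.06, and 22 members were lower and 16 higher. The shares of all genes called with that scaling were not computed. In bulk RNA, fewer cells of a kind and less RNA per cell cannot be told apart.

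**Figure D1:**
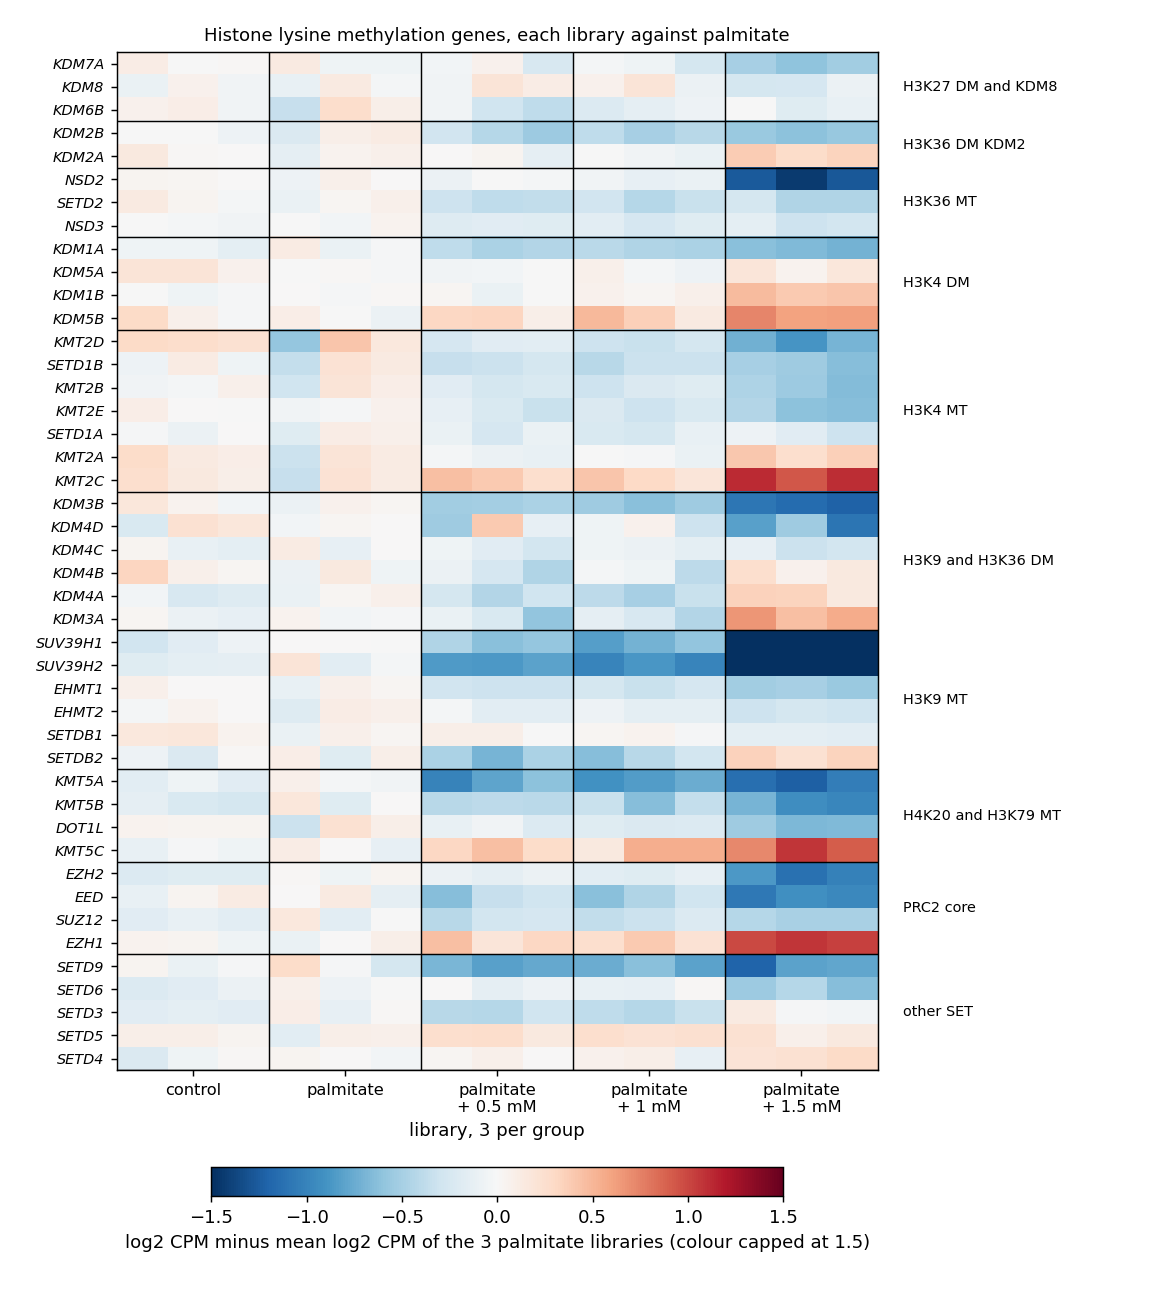
Each column is 1 library and each row 1 of 44 members (NSD1, SETD7 and KDM4E are left out for low counts), grouped by role, where MT is methyltransferases and DM demethylases; colour is log2 CPM minus the mean log2 CPM of the palmitate libraries. The high butyrate columns hold the deepest blue, in SUV39H1, SUV39H2 and NSD2, and the deepest red, in KMT2C and EZH1, while the low and medium columns look alike.

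At the low dose 21 members fell and 7 rose, where 24% of all genes were called lower and 25.9% higher. At the medium dose 23 fell and 7 rose, against 24.4% and 27.1% of all genes. Without palmitate library 3, 4 members in place of 7 were called higher at the low dose, in a fit for which the share of all genes was not computed. The members' median log2 change was -0.18 at both doses, against 0.02 and 0.03 for all genes. Medium was also compared with low directly: 0 members and 0 of all genes (0% in each direction) were called by edgeR, with 0 members but 490 genes at an unadjusted p under 0.05, 0 genes by DESeq2 and 1 gene by limma on FPKM. Without NSD1 and SETD7, whose counts are low, the 44 log2 differences between medium and low ran from -0.15 to 0.10, and 2 SE on either side of them reached from -0.48 to 0.39. The step from medium to high was different in size, with 13 members higher and 19 lower, against 26.9% and 28.7% of all genes, and a median log2 change of -0.17 against 0.01.

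Cell cycle genes and mitochondrial transcripts moved along these same groups. The summed level of 30 cell cycle genes was 6639 to 6677 CPM in control, 6959 to 7289 in palmitate, 5887 to 5998 at the low dose, 5452 to 5793 at the medium dose and 2649 to 2829 CPM in high butyrate. In high butyrate against palmitate 29 of these 30 fell and 1 rose, against 33.8% and 37.7% of all genes tested. Their median log2 change was -1.78, and CCNA2, a cyclin of S phase and mitosis, was 8.98-fold lower (adjusted p = 2.27e-19). Genes of the mitochondrial genome took 8.62% to 10.4% of counts in palmitate and 11.5% to 14.0% in high butyrate. Their part in the changes of the methylation genes was not tested.

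The methyltransferases of H3K9, the mark of constitutive heterochromatin, held the 2 largest falls among the members at the high dose. There 5 of the 6 fell and 1 rose, with a median log2 change of -0.41, where 33.8% of all genes tested were lower and 37.7% higher. SUV39H1 (chrX:48695554-48709012, plus strand), which trimethylates H3K9 at pericentric repeats, stood at 12.0, 12.9 and 13.8 CPM in control and 14.6, 14.7 and 14.6 CPM in palmitate. Its level was 10.7, 9.49 and 9.74 CPM at the low dose, 8.25, 8.96 and 9.72 at the medium dose and 3.29, 3.31 and 3.38 in high butyrate. The butyrate libraries all lay below the control and palmitate libraries, and the high ones far below the rest. The fall was 1.46-fold at the low dose, 1.63-fold at the medium dose and 4.38-fold at the high dose (log2 -2.13, SE 0.10, adjusted p = 2.75e-14), and 2.70-fold from medium to high (adjusted p = 9.02e-11).

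SUV39H2, its paralog, had 25.5, 26.1 and 26.3 CPM in control and 33.0, 25.8 and 28.3 CPM in palmitate. It had 16.0, 15.9 and 16.5 CPM at the low dose, 14.5, 15.8 and 14.5 at the medium dose and 9.41, 8.93 and 6.97 in high butyrate. Every butyrate library was below every library without butyrate. The fall was 1.80-fold, 1.94-fold and 3.44-fold with dose (at high log2 -1.78, SE 0.10, adjusted p = 8.6e-13). This gene overlaps DCLRE1C on the other strand by 6957 bases, and with the strand setting not given in the sources used here, reads there could belong to either. The same holds for other members that overlap protein-coding genes on the other strand, among them SETDB1 (CERS2), NSD3 (DDHD2), KMT2E (SRPK2), SETD4 (CBR1) and SETD6 (CNOT1). DOT1L is another, overlapping AP3D1 and PLEKHJ1. The euchromatic H3K9 enzymes changed less: EHMT1 (GLP) was 1.44-fold lower and EHMT2 (G9a) 1.23-fold lower at the high dose, and SETDB1, which acts with KAP1 on retroelements, 1.11-fold lower with an adjusted p of 0.0474. Without palmitate library 1 EHMT2 was also called lower at the low and medium doses (log2 -0.21 and -0.22, adjusted p = 0.00656 and 0.00375). The calls of EHMT2 and SETDB1 at the high dose were lost with library totals as the scaling (adjusted p = 0.0599 and 0.837).

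SETDB2, a SETDB1 relative, changed direction with dose. It stood at 18.3, 15.1 and 18.1 CPM in palmitate, 12.3, 10.6 and 12.3 at the low dose, 11.0, 12.8 and 14.1 at the medium dose and 21.8, 20.1 and 21.6 CPM in high butyrate, with 16.3, 14.8 and 17.3 CPM in control. The low and medium libraries lay below palmitate and the high libraries above it, without overlap. It was 1.46-fold and 1.36-fold lower at the low and medium doses and 1.23-fold higher at the high dose (log2 0.30, SE 0.10, adjusted p = 0.0096), with a rise of 1.67-fold from medium to high (adjusted p = 1.77e-06). The rise over palmitate was not called without palmitate library 2 (adjusted p = 0.0714), and the medium-dose fall was not called with length and GC trends removed (log2 -0.18, adjusted p = 0.104). Of 15 readers and partners of H3K9 methylation, 9 fell (60%) and 5 rose (33.3%) at the high dose, with a median log2 change of -0.33. The shares of all genes tested were 33.8% and 37.7%. UHRF1, which reads H3K9me3 and guides maintenance DNA methylation, fell 3.53-fold from 167.1 ± 27.3 to 47.4 ± 4.44 CPM (SD, n = 3), and TASOR, a HUSH complex subunit, fell 1.99-fold.

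In the PRC2 core, which methylates H3K27, the catalytic subunits moved in opposite directions. EZH2 (chr7:148807383-148884321, minus strand) stood at 70.2, 67.6 and 70.2 CPM at the low dose, 66.4, 65.5 and 68.1 at the medium dose and 40.9, 34.1 and 36.8 CPM in high butyrate. The low and medium libraries lay below the palmitate libraries. The low libraries were above the control libraries, the medium libraries overlapped them, and the high libraries lay far below all others. EZH2 was 2.00-fold lower than palmitate at the high dose (SE of the log2 change 0.06, adjusted p = 8.3e-12). At the medium dose it was 1.12-fold lower (adjusted p = 0.0416). The medium-dose call was lost without palmitate library 1 (adjusted p = 0.0674) or 3 (0.135) and without any 1 medium library (0.0953, 0.118 and 0.0531), and against control in place of palmitate the log2 difference was 0.03.

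EZH1 (chr17:42700275-42745049, minus strand), the paralog found mainly in cells that divide little, stood at 22.0, 21.9 and 20.3 CPM in control and 19.9, 21.4 and 22.6 CPM in palmitate. It reached 29.1, 24.1 and 26.4 CPM at the low dose, 25.2, 28.0 and 24.6 at the medium dose and 42.4, 44.8 and 43.4 in high butyrate. All butyrate libraries were above all others. The rise was 1.25-fold, 1.22-fold and 2.04-fold with dose (at high log2 1.03, SE 0.08, adjusted p = 1.13e-10). Per length, the ratio of EZH1 to EZH2 FPKM was 0.504 ± 0.0251 in control, 0.441 ± 0.0306 in palmitate, 0.590 ± 0.0458 at the low dose, 0.601 ± 0.0524 at the medium dose and 1.81 ± 0.211 in high butyrate (SD, n = 3). The ratio was above 1 in the high libraries alone, at 1.60, 2.02 and 1.82. FPKM divides here by gene lengths of 6.99 kb for EZH1 and 10.8 kb for EZH2. The lengths of the transcripts present were not measured, so the shift between groups can be read but not which gene had more transcripts.

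**Figure D2:**
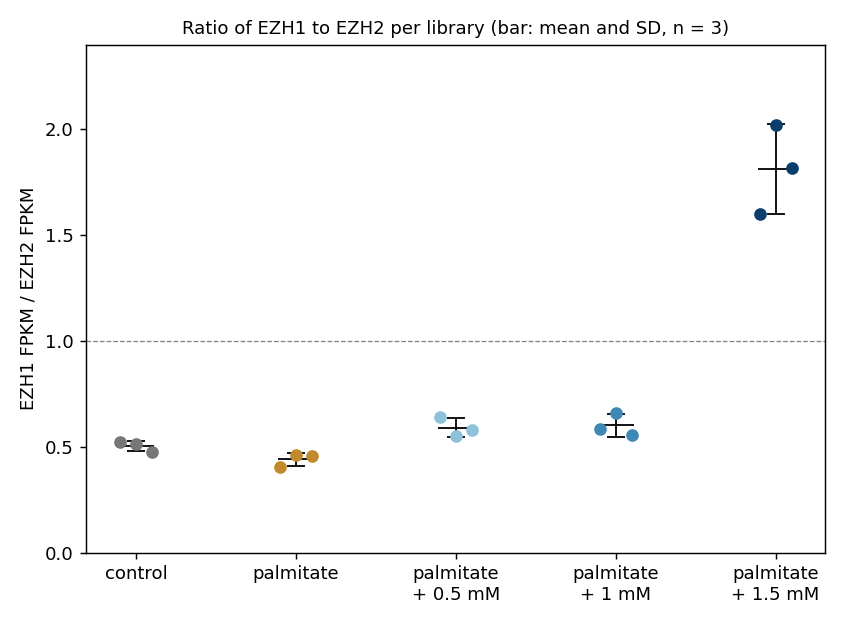
Ratio of EZH1 to EZH2 FPKM for each of the 15 libraries by group, with the group mean and SD (n = 3) and a dashed line at equal FPKM. The high butyrate libraries lie between 1.60 and 2.02, and the highest of the others is 0.659.

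EED, which reads H3K27me3 and activates the complex, fell 1.34-fold, 1.37-fold and 1.98-fold with dose, from 34.3, 37.4 and 31.2 CPM in palmitate to 16.3, 18.1 and 17.5 CPM in high butyrate, with no overlap. Its low- and medium-dose calls were lost with trends of gene length and GC content removed (adjusted p = 0.20 and 0.207). SUZ12, the scaffold subunit, was 1.25-fold, 1.23-fold and 1.39-fold lower. The calls of SUZ12 at all doses were lost with the same trends removed (adjusted p = 0.523, 0.992 and 0.11), and reads may be shared with its pseudogene copy SUZ12P1, which held 5268 counts over all libraries. Of 11 accessory subunits 4 fell (36.4%) and 3 rose (27.3%) at the high dose, with a median log2 change of -0.13. For all genes tested the shares were 33.8% lower and 37.7% higher. PHF19, a Polycomb-like protein that binds H3K36me3 through its Tudor domain, stood at 76.0 ± 5.87 CPM in palmitate and at 9.88 ± 0.986 CPM in high butyrate, a 7.68-fold fall (adjusted p = 1.3e-17). The histone chaperone RBBP4 fell 1.94-fold. JARID2, a JmjC-type subunit with no demethylase activity, rose 1.87-fold. Of 20 PRC1 subunits, the readers and H2A ubiquitin ligases of the same pathway, 9 rose and 9 fell. That is 45% in each direction, against 37.7% and 33.8% of all genes tested. The falls with the smallest adjusted p were those of SCMH1 (3.57-fold), PHC2 (2.58-fold) and PCGF5 (2.42-fold).

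Promoter sequence was examined for letters of the E2F binding type, since E2F factors drive S-phase genes, and the windows that hold them are shown to set risen and fallen members side by side. Windows of 300 bases, from 250 before to 50 after the start of transcription, were taken from RefSeq (GRCh38.p14) for the 43 members that have one. The letters TTTCCCGC, TTTCGCGC, TTTGCCGC or TTTGGCGC, on either strand, were in 5 of the 43 windows (11.6%) and in 3.31% of 35116 windows of all genes. The sequence CCAAT was in 37.2% of members and 34.6% of all, and the GC box GGGCGG in 79.1% and 45%. The 5 windows below belong to EZH1 (chr17:42744991-42745290, minus strand) and KDM1B (chr6:18155172-18155471, plus strand), which rose at the high dose, and to EZH2 (chr7:148884242-148884541, minus strand, 1 of 2 starts), NSD2 (chr4:1871143-1871442, plus strand) and SUZ12 (chr17:31936757-31937056, plus strand), which fell. Each is written from 5′ to 3′ of the gene, with E2F-type and CCAAT letters (or their reverse complements) in capitals, and no E2F-type match overlaps a CCAAT or GC box.
EZH1: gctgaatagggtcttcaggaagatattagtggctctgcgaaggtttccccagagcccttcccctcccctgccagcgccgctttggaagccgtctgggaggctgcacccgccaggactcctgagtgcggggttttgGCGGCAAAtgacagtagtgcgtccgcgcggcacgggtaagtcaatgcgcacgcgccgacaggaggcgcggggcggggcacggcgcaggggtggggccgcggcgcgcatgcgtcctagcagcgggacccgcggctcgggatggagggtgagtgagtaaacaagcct
KDM1B: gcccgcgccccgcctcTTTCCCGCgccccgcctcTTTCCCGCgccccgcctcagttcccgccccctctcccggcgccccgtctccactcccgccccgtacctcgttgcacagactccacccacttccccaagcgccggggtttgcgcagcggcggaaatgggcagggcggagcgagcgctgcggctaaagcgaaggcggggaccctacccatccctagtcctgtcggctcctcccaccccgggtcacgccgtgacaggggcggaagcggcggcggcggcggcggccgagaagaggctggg
EZH2: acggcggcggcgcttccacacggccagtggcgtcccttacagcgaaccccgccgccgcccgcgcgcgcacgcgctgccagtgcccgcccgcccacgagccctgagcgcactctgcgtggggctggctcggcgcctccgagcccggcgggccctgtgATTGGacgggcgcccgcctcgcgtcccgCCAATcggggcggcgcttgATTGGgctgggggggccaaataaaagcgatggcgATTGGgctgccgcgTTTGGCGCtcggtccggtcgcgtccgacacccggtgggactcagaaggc
NSD2: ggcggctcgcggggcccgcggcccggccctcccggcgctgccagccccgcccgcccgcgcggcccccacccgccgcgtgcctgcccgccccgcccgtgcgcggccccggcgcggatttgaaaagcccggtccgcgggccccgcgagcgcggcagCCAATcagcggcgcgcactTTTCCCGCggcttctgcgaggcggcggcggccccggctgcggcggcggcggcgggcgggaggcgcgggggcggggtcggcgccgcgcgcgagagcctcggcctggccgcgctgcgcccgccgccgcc
SUZ12: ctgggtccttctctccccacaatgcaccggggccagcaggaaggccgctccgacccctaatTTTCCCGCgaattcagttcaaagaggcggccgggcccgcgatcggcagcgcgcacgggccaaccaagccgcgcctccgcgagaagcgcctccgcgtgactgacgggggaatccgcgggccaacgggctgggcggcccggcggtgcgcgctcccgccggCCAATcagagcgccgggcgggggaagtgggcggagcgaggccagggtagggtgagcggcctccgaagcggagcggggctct
Matches were found in members of both directions, and the windows of SUV39H1 and SUV39H2 held none of these exact letters. The search used 1 window per member, whereas the 35116 windows of all genes include every start of a gene that has several. The shares of members and of all windows are thus not on the same footing, and no difference between them was tested. A part of E2F factors in the changes was not tested. A match describes letters and is not a bound site.

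The H3K36 methyltransferases fell in 3 of 4 cases at the high dose, with a median log2 change of -0.55, where 33.8% of all genes tested were lower. NSD2 (chr4:1871424-1982207, plus strand), which dimethylates H3K36, changed almost wholly at the last dose step. It stood at 200, 198 and 195 CPM in control, 183, 204 and 195 in palmitate, 182, 193 and 190 in low and 187, 178 and 182 CPM in medium butyrate. In high butyrate it was at 80.9, 71.5 and 80.3 CPM. The palmitate range overlapped those of control, low and medium, the control libraries lay above the low and medium ones, and the high libraries lay far below all of them. The log2 change against palmitate was -0.04 (SE 0.06) at low, -0.09 (SE 0.06) at medium and -1.32 (SE 0.06, adjusted p = 5.23e-14) at high, a 2.50-fold fall, and from medium to high it was -1.23 (adjusted p = 8.19e-13).

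SETD2, which makes H3K36me3 behind RNA polymerase II, behaved differently across dose. Its fall was 1.28-fold, 1.27-fold and 1.31-fold at low, medium and high, with a log2 difference of -0.04 (SE 0.07) between high and medium. NSD3 was 1.14-fold, 1.15-fold and 1.18-fold lower, calls that were lost under several alternatives. NSD1 lay near the limit of detection, with 0.559, 0 and 0.0343 CPM in palmitate and at most 1.00 CPM in any library. Its log2 change at high was -0.71 (adjusted p = 0.466) and became 2.45 without palmitate library 1, so no direction can be given. At the low and medium doses NSD1 was called higher, 4.04-fold and 3.90-fold, and both calls were lost without palmitate library 2 (adjusted p = 0.0575 and 0.0637) or 3 (0.0904 and 0.0987). From medium to high butyrate, where no palmitate library enters, NSD1 fell from 0.357, 0.924 and 1.00 to 0.134, 0.0996 and 0.121 CPM (log2 -2.68, adjusted p = 0.00427).

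Among the H4K20 and H3K79 enzymes the monomethyltransferase and one of the paired higher methyltransferases of H4K20 fell and the other rose. KMT5A (SET8), which monomethylates H4K20 and peaks in mitosis, stood at 38.4, 35.7 and 35.1 CPM in palmitate, 18.1, 21.0 and 23.7 at the low dose, 19.4, 20.4 and 21.7 at the medium dose and 16.7, 15.5 and 17.6 CPM in high butyrate. Control libraries had 32.6, 34.9 and 32.5 CPM, so that all butyrate libraries lay below. Unlike NSD2, most of its fall was reached at the low dose: 1.74-fold at low, 1.78-fold at medium and 2.19-fold at high (log2 -1.13, SE 0.09, adjusted p = 1.29e-10), and 1.23-fold from medium to high. Its pseudogene copies KMT5AP1 and KMT5AP2 held 580 and 557 counts in all.

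KMT5B (SUV420H1) fell 1.33-fold, 1.36-fold and 1.83-fold. KMT5C (SUV420H2), with which it shares the di- and trimethylation of H4K20, had 7.85, 7.32 and 6.70 CPM in palmitate and 12.0, 15.3 and 13.6 CPM in high butyrate, with 9.02, 9.91 and 8.83 at the low dose, 8.04, 10.7 and 10.6 at the medium dose and 6.73, 7.17 and 6.97 in control. All butyrate libraries exceeded all others. The rise was 1.27-fold, 1.34-fold and 1.87-fold (at high log2 0.90, SE 0.11, adjusted p = 3.72e-07). At the low dose the rise was not called without palmitate library 3 (adjusted p = 0.0857) or low library 2 (0.0639), and with length and GC trends removed neither the low-dose (log2 -0.05) nor the medium-dose value (log2 0.02, adjusted p = 0.894) was a called rise. DOT1L, the sole known H3K79 methyltransferase, fell 1.56-fold at the high dose, from 89.1, 130 and 118 to 76.6, 69.3 and 70.2 CPM (adjusted p = 2.12e-06). It was not called at the low and medium doses with all libraries (adjusted p = 0.218 and 0.0501) but was lower without palmitate library 1 (adjusted p = 0.000623 and 3.59e-05).

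**Figure D3:**
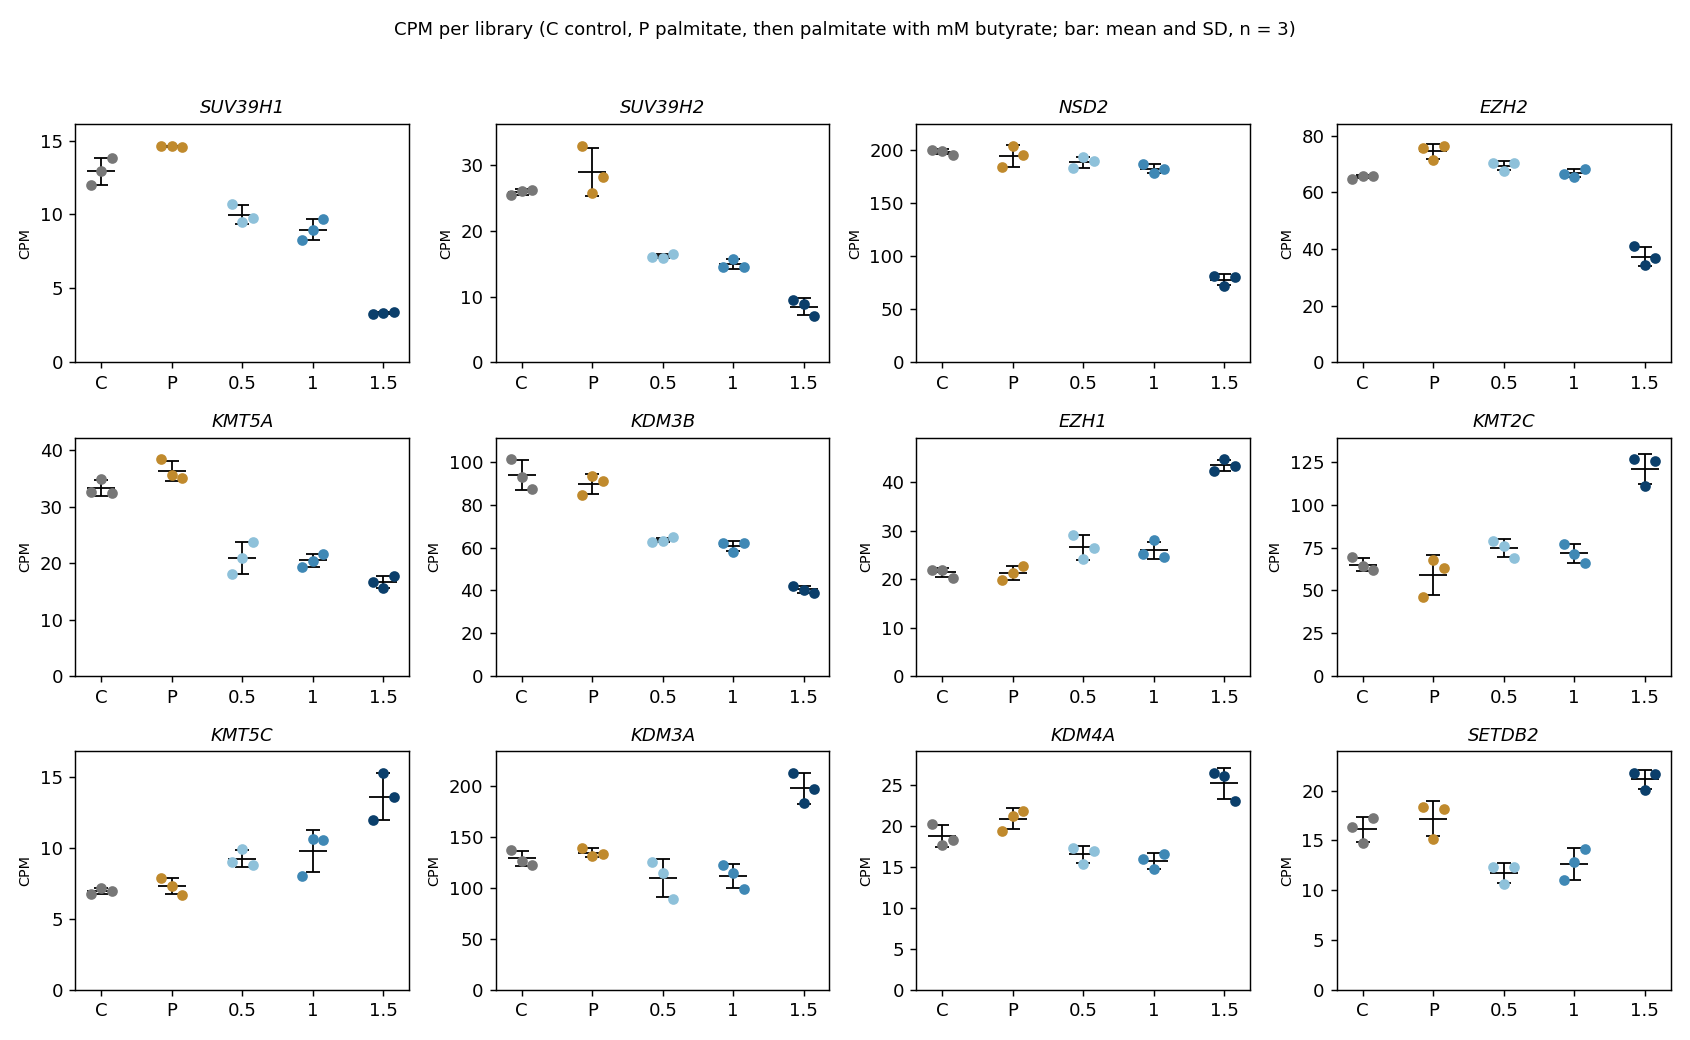
CPM of 12 members in each library, with mean and SD (n = 3), for control (C), palmitate (P) and palmitate with 0.5, 1 or 1.5 mM butyrate; every vertical axis starts at 0. NSD2 and EZH2 have their main drop at 1.5 mM, to 71.5 to 80.9 and 34.1 to 40.9 CPM, KMT5A has dropped at 0.5 mM, and KDM3A, KDM4A and SETDB2 lie below palmitate at 0.5 and 1 mM and above it at 1.5 mM.

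The members grouped as H3K4 methyltransferases divided. The group holds the enzymes of the MLL and SET1 complexes and also KMT2E and SETD7, which are not counted among those here. At the high dose 5 of the 8 fell and 3 rose, with a median log2 change of -0.38, where 33.8% of all genes tested were lower and 37.7% higher. KMT2C (MLL3, chr7:152134922-152436005, minus strand), which with KMT2D monomethylates H3K4 at enhancers, had 45.9, 67.8 and 63.0 CPM in palmitate, 79.1, 76.2 and 69.0 at the low dose, 77.3, 71.4 and 66.1 at the medium dose and 127, 111 and 125 CPM in high butyrate. Control libraries had 69.3, 64.2 and 61.9 CPM. The high libraries lay above all others, while the medium and palmitate libraries overlapped. KMT2C was 2.05-fold higher at the high dose (log2 1.04, SE 0.10, adjusted p = 1.1e-08), and its medium-dose call (1.22-fold higher) was lost without palmitate library 1 (adjusted p = 0.176).

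KMT2D (MLL4), the paralog of KMT2C, went the other way. It stood at 161, 158 and 154 CPM in control, 88.3, 176 and 147 in palmitate, 110, 117 and 118 at the low dose, 106, 104 and 110 at the medium dose and 80.1, 71.5 and 81.2 CPM in high butyrate. The high libraries were below all others, but palmitate library 1 was close to them. The fall at the high dose was 1.77-fold (log2 -0.82, SE 0.14, adjusted p = 2.44e-05), and the medium-dose call was lost without palmitate library 2 (adjusted p = 0.344). At the low dose KMT2D was not called with all libraries (adjusted p = 0.143) but was lower without palmitate library 1 (log2 -0.49, adjusted p = 3.69e-06). From medium to high, with no palmitate library involved, KMT2D fell 1.37-fold (adjusted p = 0.00901) and KMT2C rose 1.69-fold (adjusted p = 2.29e-06). The KMT2D fall in that step was not called by limma on log2(FPKM + 1) (adjusted p = 0.111).

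KMT2A (MLL1) rose 1.25-fold at the high dose, a difference that was not called against control (adjusted p = 0.124), while KMT2B was 1.48-fold, KMT2E 1.48-fold and SETD1B 1.49-fold lower. SETD1A was 1.14-fold lower, a call lost with DESeq2 (adjusted p = 0.139). Without palmitate library 1, KMT2A was called lower at the low and medium doses (log2 -0.23 and -0.20, adjusted p = 0.00518 and 0.0155) and SETD1A at the low dose (log2 -0.24, adjusted p = 0.00733). SETD7, a monomethyltransferase of H3K4 and of many other proteins, had the largest rise, 7.76-fold at the high dose and 8.46-fold at the low dose, on few reads. It had 1.03, 0.155 and 0.0685 CPM in palmitate, 0.850, 0.810 and 0.428 in control, 3.35, 3.67 and 3.42 at the low dose, 3.73, 3.75 and 3.93 at the medium dose and 3.96, 3.05 and 2.58 CPM in high butyrate. Every butyrate library was above every other library, and the palmitate libraries differed so much among themselves that the size of the fold is loose. Of 15 subunits and partners of the MLL and SET1 complexes, 10 fell and 4 rose at the high dose, against 33.8% and 37.7% of all genes tested. Their median log2 change was -0.55. Among the falls were those of BOD1 (2.44-fold) and of PAXIP1 (2.16-fold), which belongs to the KMT2C and KMT2D complexes.

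The H3K4 demethylases did not share a direction. KDM1A fell at every dose, with 218, 187 and 197 CPM in palmitate, 154, 144 and 148 at the low dose, 152, 146 and 143 at the medium dose and 130, 127 and 122 CPM in high butyrate, against 191, 191 and 181 in control. All butyrate libraries lay below all others. The fall was 1.35-fold, 1.36-fold and 1.59-fold (at high log2 -0.67, SE 0.06, adjusted p = 4.14e-09). KDM1B (LSD2), the other flavin-dependent enzyme, had 52.7, 52.0 and 53.3 CPM in palmitate and 73.3, 69.0 and 70.1 CPM in high butyrate, a 1.34-fold rise (log2 0.43, SE 0.06, adjusted p = 7.99e-07). At the low and medium doses its libraries ran from 49.2 to 55.7 CPM and it was not called.

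KDM5B, a JmjC demethylase of H3K4me3, stood at 63.7, 59.2 and 55.9 CPM in palmitate, 73.6, 74.5 and 63.0 at the low dose, 83.5, 76.2 and 65.3 at the medium dose and 98.7, 90.7 and 91.1 CPM in high butyrate. It had 72.8, 62.6 and 59.0 CPM in control, so low and control libraries overlapped and the high libraries stood above all. The rise was 1.18-fold, 1.26-fold and 1.57-fold (at high log2 0.65, SE 0.09, adjusted p = 1.66e-06), and the low-dose call was lost without palmitate library 2 (adjusted p = 0.0607) or 3 (0.134) or low library 1 (0.117) or 2 (0.108). KDM5A was at 49.6 to 51.1 CPM in palmitate and 52.3 to 56.9 CPM in high butyrate, with an adjusted p of 0.0567. Of 13 partners of KDM1A in the CoREST complex 8 fell and 3 rose at the high dose, against 33.8% and 37.7% of all genes tested. Their median log2 change was -0.21. Of the 3 with the smallest adjusted p, HMG20B and RCOR1, both complex subunits, rose 2.22-fold and 1.75-fold, and RCOR2 fell 1.56-fold.

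Among the demethylases of H3K9 and H3K36, KDM3B fell and KDM3A rose at the high dose. KDM3B (chr5:138352596-138437028, plus strand), an H3K9 demethylase of the JHDM2 type, had 84.5, 93.5 and 91.2 CPM in palmitate, 62.6, 63.1 and 64.8 at the low dose, 62.1, 58.0 and 61.9 at the medium dose and 42.2, 40.2 and 38.8 CPM in high butyrate, with 101, 93.1 and 87.2 in control. The groups without butyrate, the low and medium groups together and the high group formed 3 ranges that did not overlap. The fall was 1.41-fold, 1.48-fold and 2.22-fold (at high log2 -1.15, SE 0.07, adjusted p = 1.21e-12).

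KDM3A, its hypoxia-responsive paralog, stood at 139, 131 and 133 CPM in palmitate, 126, 114 and 89.2 at the low dose, 122, 114 and 99.0 at the medium dose and 212, 183 and 197 CPM in high butyrate, with 137, 126 and 123 in control. Low and medium libraries lay below palmitate, the low ones overlapped control and the medium ones lay below it, and the high libraries lay above every other. It was 1.22-fold and 1.20-fold lower at low and medium (adjusted p = 0.017 and 0.0269) and 1.47-fold higher at high (log2 0.56, SE 0.10, adjusted p = 2.81e-05). From medium to high KDM3A rose 1.77-fold (adjusted p = 3.25e-07). The low-dose call was lost without low library 3 (adjusted p = 0.147), and the medium-dose call without medium library 3 (0.145) or palmitate library 1 (0.053) or 3 (0.0501). Both calls were also lost with length and GC trends removed (log2 -0.18 and -0.13, adjusted p = 0.122 and 0.25), by limma on log2(FPKM + 1) (0.0785 and 0.121) and against control (0.0596 and 0.0898).

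KDM4A, a demethylase of H3K9me3 and H3K36me3, showed the same order of groups. It had 19.4, 21.3 and 21.9 CPM in palmitate, 17.3, 15.4 and 16.9 at the low dose, 15.9, 14.7 and 16.6 at the medium dose and 26.5, 26.2 and 23.1 CPM in high butyrate, with 20.3, 17.7 and 18.3 in control. The palmitate libraries lay between the low and medium libraries below and the high libraries above. The log2 change was -0.34, -0.41 and 0.27 with dose (at high SE 0.08, adjusted p = 0.00502) and 0.68 from medium to high (adjusted p = 4.6e-07). Its antisense partner KDM4A-AS1 held 1751 counts against 13933 for KDM4A, and a longer annotated gene on the same strand covers all of it. KDM4C was 1.18-fold lower at the high dose, a call lost with library totals as the scaling (adjusted p = 0.175), KDM4D, with 1.03 to 1.51 CPM there, 1.73-fold lower, and KDM4B was not called (adjusted p = 0.181), its log2 value of 0.16 becoming -0.44 with length and GC trends removed. KDM4B was called lower at the low dose, at 40.4 ± 5.1 against 48.2 ± 4.3 CPM in palmitate (SD, n = 3). From medium to high it was called higher, from 43.35 ± 5.7 to 53.7 ± 3.3 CPM, with 53.2 ± 6.0 CPM in control. Each of these 2 calls was lost in at least 1 alternative.

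Of the KDM2 demethylases of H3K36me2, KDM2A rose and KDM2B fell. KDM2A had 54.8, 62.7 and 63.6 CPM in palmitate, 55.0 to 62.1 in low and medium together and 78.4, 72.9 and 76.0 CPM in high butyrate, with 60.3 to 66.6 CPM in control. Only the high libraries stood clear of the rest, and the rise was 1.25-fold (log2 0.33, SE 0.07, adjusted p = 0.000249). KDM2B, which also recruits a PRC1 variant to CpG islands, had 87.0, 107 and 110 CPM in palmitate, 82.6, 75.3 and 69.0 at the low dose, 77.3, 71.6 and 75.4 at the medium dose and 68.5, 66.0 and 68.3 CPM in high butyrate. Here every butyrate library was below every palmitate library, and the fall was 1.34-fold, 1.36-fold and 1.50-fold (at high log2 -0.59, SE 0.08, adjusted p = 9.38e-07).

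Of the H3K27 demethylases and KDM8, 1 of 3 was called at the high dose and 0 at the lower doses. The call was a fall, and 33.8% of all genes tested fell at the high dose. KDM7A, which removes H3K27 and H3K9 methyl groups, fell 1.46-fold at the high dose, from 88.7, 77.3 and 77.7 CPM in palmitate to 57.5, 53.6 and 56.5 CPM (log2 -0.54, SE 0.08, adjusted p = 4.11e-06). At the lower doses it stood at 67.5 to 84.9 CPM and was not called. KDM6B (JMJD3), the inducible H3K27me3 demethylase, ran from 16.5 to 25.6 CPM over all libraries, with log2 changes of -0.26, -0.16 and -0.12 that were not called. Without palmitate library 1, which was its lowest palmitate library, KDM6B was lower at each dose (adjusted p = 0.000625, 0.00641 and 0.00825). KDM8, at 5.18 to 7.12 CPM, was not called in any comparison.

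The remaining SET proteins act mainly or partly on other substrates. SETD9, at 5.49, 4.50 and 3.79 CPM in palmitate and 1.98, 2.61 and 2.64 CPM in high butyrate, was 1.90-fold lower (log2 -0.92, SE 0.15, adjusted p = 1.62e-05) and already 1.70-fold lower at the low dose, but it overlaps MIER3 on the other strand, which held 15897 counts against 2428 for SETD9. SETD6 fell 1.45-fold at the high dose and was not called at the others. It overlaps CNOT1 on the other strand by 1231 bases, and CNOT1 held 341208 counts against 21166 for SETD6. SETD3, the actin histidine methyltransferase, was 1.30-fold lower at low and medium alike and back at the palmitate level at high, with 60.8, 52.1 and 57.5 CPM in palmitate and 62.1, 55.8 and 55.2 CPM in high butyrate, a log2 difference of 0.02 (SE 0.07). SETD5, with no settled activity, was 1.16-fold and 1.17-fold higher at low and medium, calls lost without palmitate library 1 at low (adjusted p = 0.0585). SETD4 had 10.5, 10.2 and 9.87 CPM in palmitate and 11.8, 11.9 and 12.5 CPM in high butyrate, where it was 1.18-fold higher (adjusted p = 0.019), a call lost without palmitate library 3 (0.0741) or high library 3 (0.0667).

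The low dose against palmitate and the high dose against the medium dose share no library, so the first change and the last dose step could be set side by side. Of the 21 members that fell at the low dose, 10 fell again from medium to high (47.6%), and 5 rose (23.8%), namely KDM3A, KDM4A, KDM4B, SETD3 and SETDB2. Over all genes, 58.4% of those that fell at the low dose fell again and 12.6% rose. Of the 7 members that rose at the low dose, EZH1, KDM5B, KMT2C and KMT5C rose again (57.1%) and NSD1 fell (14.3%), against 48.2% and 15.7% over all genes that rose at the low dose. Of the 18 not called at the low dose, 8 fell at the last step, EZH2, NSD2, KMT2D, DOT1L, KDM4D, KDM7A, SETD6 and SETDB1, and 4 rose, KDM1B, KDM2A, KMT2A and SETD4. That is 44.4% and 22.2%, against 21.1% and 22.8% of all genes not called at the low dose. These are counts of genes and carry no test.

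**Figure D4:**
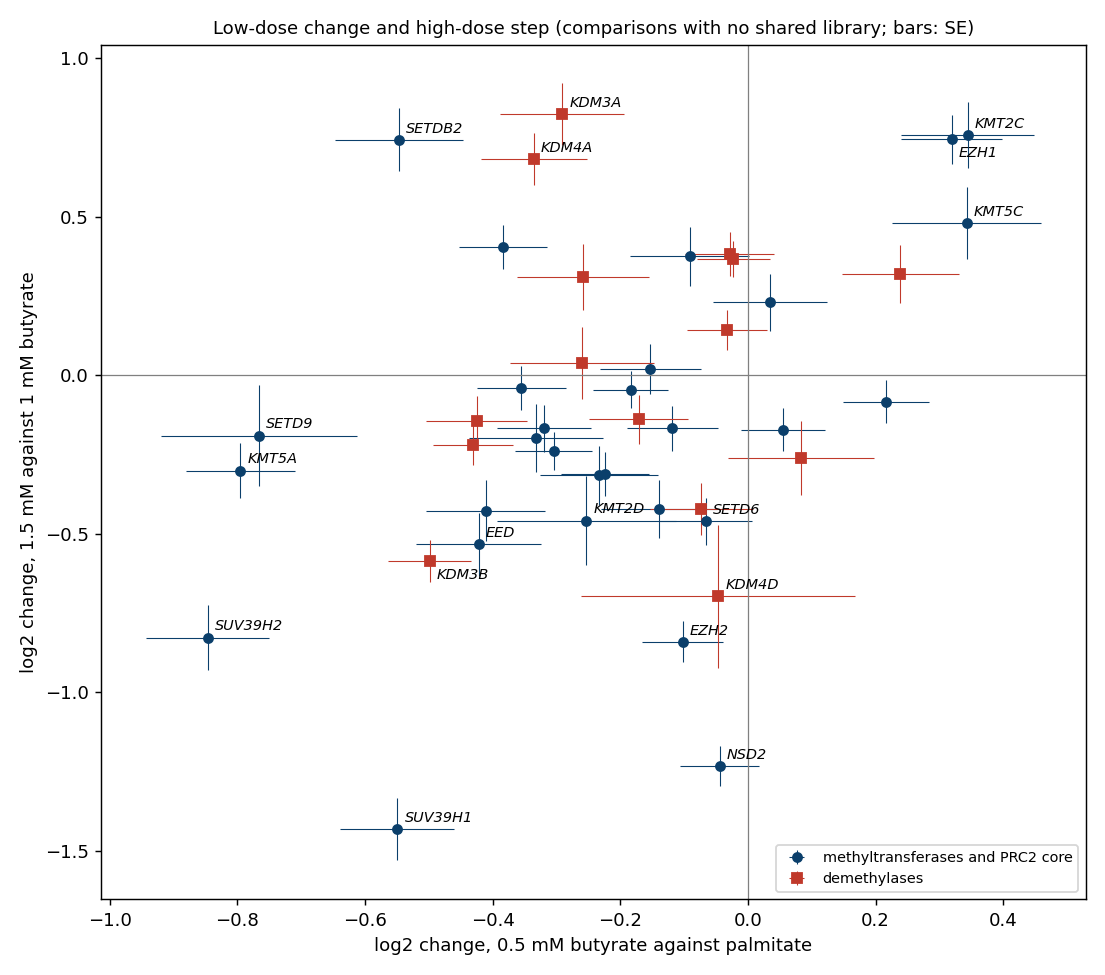
Log2 change of 44 members at 0.5 mM butyrate against palmitate (horizontal) and from 1 to 1.5 mM butyrate (vertical), with SE bars; circles are methyltransferases and PRC2 core subunits, squares demethylases. SUV39H1 and SUV39H2 lie far down on the left, NSD2 (-0.04, -1.23) and EZH2 lie low near the vertical zero line, and SETDB2, KDM3A and KDM4A lie at the upper left.

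Other methylation enzymes outside the symbol rule were counted for comparison at the high dose, where 33.8% of all genes tested were lower than palmitate and 37.7% higher. Of 18 further lysine methyltransferases tested 8 fell and 4 rose, with a median log2 change of -0.15, and SMYD2 and SMYD5 fell 2.48-fold and 2.25-fold. Of 12 further JmjC proteins 6 fell and 3 rose, with a median of -0.43. Among them JMJD1C, the relative of KDM3A and KDM3B, fell 2.75-fold from 96.7 ± 0.548 to 35.1 ± 2.15 CPM, and PHF2, an H3K9 demethylase, fell 3.92-fold (SD, n = 3). Of 11 arginine methyltransferases and their partners 10 fell and the other was not called, with a median of -0.62, PRMT6 by 2.30-fold and WDR77, the partner of PRMT5, by 3.09-fold.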

How the data were processed

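Poly(A) RNA of 15 HepG2 libraries was measured. Gene-level raw counts and FPKM were deposited side by side, per the file headers. The authors' FPKM equalled the count over gene length and library total (within 1%, tested on 11013 well-covered genes). Per the submitters' processing notes, FastQC, HISAT2, featureCounts and DESeq2 were used with GRCh38 and hg38. Versions, annotation release and strand setting are not given in the sources used here. Low counts (1 to 20) were even in 69.19% of cases.

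The filterByExpr rule of edgeR retained 20309 genes, which were scaled by TMM and fitted in 1 quasi-likelihood model of all 15 libraries (edgeR 4.0.16, R 4.3.3; biological coefficient of variation 8.88%). The p-values of this test were adjusted by Benjamini-Hochberg over the 20309 genes, with calls under 0.05. SE is that of the log2 change, and levels are CPM. The pipeline was tested on simulated data. Replicate numbers did not pair the libraries: correlations of same-numbered deviations ran from -0.06 to 0.052.

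Members and gene lists (12 lists, 188 names, 1 without a row) were chosen with earlier results of these data known. The text names, per role group, the called members with the largest rise and fall at the high dose, EZH1, EZH2, members called in different directions between doses, and up to 3 called genes per list with the smallest adjusted p. Other members are given by changes or ranges. SUV39H2, EED, KMT2C, KDM1B, NSD1, DOT1L, KDM6B and SETD3 fall outside this rule and were given in full after their values were seen. The rule is read here for doses against palmitate. With the step from medium to high counted as well, as the plan's wording allows, it also takes in NSD1, SETD3 and KDM4B. KDM4B is given by group means. Alternatives were DESeq2 (1.42.0), its size factors, library totals, other filters and thresholds, the 2 groups alone, a replicate block, limma-trend (3.58.1) on log2 FPKM with a pseudocount of 1 or 0.1, removal of a length trend, control as reference and leaving out each library. Removal of length and GC trends was chosen after seeing the data. Figures used matplotlib 3.10.9 (Python 3.11.15).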

Additional observations from a re-analysis of the deposited data

How the results depend on the processing

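Counts of members called, higher and lower, were recomputed for the 6 comparisons. Shares of all genes called were not computed for these alternatives, so the counts cannot be read against such a share. They show only how far the members' calls depend on the setting. With a change of at least 1.5-fold required they were 2 and 3 at the low dose, 2 and 4 at the medium dose, 5 and 14 at the high dose, and 5 and 7 from medium to high. At an adjusted p under 0.01, 3 members were higher at the low dose. With only the 2 groups fitted, 4 were higher at the medium dose. With control in place of palmitate, 3 were higher at low and 3 at medium. Removing length and GC trends added 6 calls and lost 5 at low, and added 5 and lost 8 at medium. It added 4 and lost 1 at high, and added 6 and lost 1 from medium to high. These counts leave out the changes of sign given below. Leaving out 1 library gave 0 higher and 0 to 2 lower for palmitate against control, 4 to 7 and 17 to 27 at low, 5 to 6 and 18 to 25 at medium, 11 to 14 and 25 to 28 at high, 0 and 0 for medium against low, and 10 to 13 and 17 to 20 from medium to high. The replicate block, though the numbers do not pair the libraries, gave 7 and 22, 7 and 23, and 12 and 27 members at the 3 doses, 0 and 0 for medium against low and palmitate against control, and 13 and 19 from medium to high. In medium against low, but in no other comparison, every library correlated best with its own number.

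Changes of sign were looked for only where the main or the alternative fit made a call, and there they were few. With length and GC trends removed the log2 change of KDM1B at low was 0.20, that of KMT5C at low -0.047 and that of KDM4B at high -0.44. EZH2 at medium was at 0.027 against control, and NSD1 at high ran from -1.26 to 2.45 with 1 library left out. Leaving aside the stricter thresholds and the control reference, 16 of 28 calls at low, 15 of 30 at medium, 31 of 39 at high and 23 of 32 from medium to high held in every alternative run. The 8 lost at high were EHMT2, KDM4C, NSD3, SETD1A, SETD4, SETDB1, SETDB2 and SUZ12. The 9 lost from medium to high were EHMT1, KDM4B, KDM4D, KDM5B, KMT2B, KMT2D, KMT5A, SETD4 and SETDB1. The cause was not tested. Depth limits KDM4E, NSD1 and SETD7, the members near 0 counts in palmitate.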

Other observations

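Genes that supply or use S-adenosylmethionine, the methyl donor of these enzymes, held some of the largest changes among the lists. Of 14 tested, 5 rose (35.7%) and 4 fell (28.6%) in high butyrate against palmitate, near the 37.7% and 33.8% of all genes tested. The median log2 change was 0.0076 against 0.06 for all genes. BHMT, which remethylates homocysteine with betaine in liver, rose 20.9-fold, from 7.94 ± 1.06 to 166 ± 24.6 CPM (SD, n = 3; adjusted p = 9.23e-17). BHMT2, its paralog that uses S-methylmethionine, fell 3.86-fold to 15.4 ± 1.18 CPM (adjusted p = 5.71e-15). MTAP, which salvages methionine from methylthioadenosine, fell 5.26-fold, from 43.6 ± 6.11 to 8.27 ± 0.341 CPM (adjusted p = 9.66e-16). Hepatocyte markers moved in both directions in the same comparison, with 5 of 9 lower (55.6%) and 2 higher (22.2%), among them ALB 2.16-fold lower and APOA1 2.00-fold higher. Among markers of other cell types COL1A1, a fibrillar collagen, went from 0.0595 ± 0.0703 to 16.8 ± 1.17 CPM.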
